A study of Danio rerio with 6 samples.

Results

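Hyaluronan is a long sugar chain that fills the cardiac jelly, the matrix between the endocardium and the myocardium of the embryonic heart. A set of 8 genes of its synthesis, linking, breakdown and uptake (has2, hapln1a, hapln1b, vcana, vcanb, tmem2, stab1 and stab2) was chosen by name and role, with earlier results of these data known, and no threshold on a measured level was applied. All 8 were found among the 19722 genes listed in the table of the series. Of these, 5 stood there under these symbols. tmem2 stood under its current symbol cemip2, of which it is a RefSeq synonym, and hapln1a and vcanb had no symbol in the table and were found by their Ensembl identifiers.

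The series compared the transcriptomes of zebrafish endocardium and endothelium in embryos of 15 somites. Cells with GFP were collected by flow sorting out of Gt(endocard:egfp) embryos, which carry Gt(SAGFF27C) and Tg(4xUAS:egfp), and out of Tg(fli1a:egfp) embryos, with 3 libraries of each line and a wild-type genotype in the labels of both. The embryos came from outcrosses to wild-type fish. Gt(endocard:egfp) is a Gal4 gene trap that drives egfp through UAS sites and labels mainly the endocardium. The paper also saw weak signal in the myocardium at later stages, and signal in a few cells that may be myeloid. Only the brightest cells of this line were used, which the paper did to limit the part of cardiomyocytes with weak eGFP. In Tg(fli1a:egfp), all GFP-positive cells were taken as a single gate, and these include endothelium, endocardium and blood cells. The paper describes the GFP-positive cells of this line as mainly endothelium and blood. What is given here for each gene is the authors' mean over the libraries of both lines, in log2 CPM (the reads counted for a gene in every 1000000 counted reads, on a log2 scale). It is 1 number per gene, so it has no replicate error and does not show in which line the reads lay. Put back on the linear scale, it is close to a geometric mean in CPM and is not a count of reads. Away from the lower end of the table, it lies below the arithmetic mean wherever the libraries differ, most of all for a gene read mainly in 1 line. Whether a small count was added before the logs were taken is not given, so means near the lower end are less certain as levels. A gene read in 1 line alone and a gene read at a middling level in both can have the same mean. No comparison between the lines was made for these genes.

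Hyaluronan is made at the cell surface by hyaluronan synthases, which join sugars from activated precursors and push the growing chain out of the cell. Link proteins hold the chain to versican, a large proteoglycan whose chondroitin sulfate chains bind water, and so build a swollen gel. The chain is cut by hyaluronidases and related surface proteins, and scavenger receptors of endothelial cells take up the fragments. The jelly is later remodelled into the endocardial cushions, from which the valves form. In the paper, endocardial progenitors reach the midline by the stage sampled here, and the linear heart tube forms only later. The means below therefore come from cells sorted before the heart tube had formed.

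The synthase has2 (ENSDARG00000036987) is the main source of hyaluronan in the embryonic heart of the mouse. Its mean over both lines was 3.81 log2 CPM, which corresponds to 14.0 CPM. Of all listed genes, 62.9% had a lower mean. The other synthase that could be found, has3, was at 0.0371 CPM, close to the lower end of the table, which ran from -5.49 to 15.49 log2 CPM. has1 was not found under that symbol and was not analysed here.

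Both link protein genes had means above that of the median gene, which was 2.58 log2 CPM (5.98 CPM). The mean of hapln1a (ENSDARG00000089769) over both lines was 4.59 log2 CPM, or 24.0 CPM, and 71.4% of the listed genes had a lower one. For hapln1b (ENSDARG00000068516) it was 5.68 log2 CPM, or 51.2 CPM, with 82.9% of the listed genes lower. After its sequencing of these lines, the paper selected several genes for in situ hybridisation in embryos of the same stage, hapln1b among them. The choice of hapln1b for staining was thus not independent of these data. The paper lists hapln1b among the genes with restricted signal in regions that match the endocardium. How the reads behind the mean of hapln1b were split between the lines was not tested here. Values in CPM are not divided by the length of the transcript, and no lengths were used here. They describe reads and not transcripts, and no order of transcript abundance between the paralogues, or between any of the genes, was read from them. A further identifier, ENSDARG00000102395, which has no symbol in the table and the name HAPLN1 in the gene name list, had a mean of 3.70 log2 CPM (13.0 CPM). It was singled out after its value was seen. The gene name list gives hapln1b the same name, HAPLN1. Whether the further identifier is another paralogue or a duplicate annotation could not be settled. How reads were divided between it, hapln1a and hapln1b was not tested, so the values of hapln1a and hapln1b are uncertain to that extent.

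The versican genes were both under the median gene. The mean of vcana (ENSDARG00000103515) was 2.25 log2 CPM, or 4.75 CPM, and 46.7% of the listed genes were lower. vcanb (ENSDARG00000009401) had a mean of -0.40 log2 CPM, or 0.757 CPM, with 22.6% of the listed genes lower, and it was the only member under 1 CPM. Each versican gene lies beside a link protein gene. In the order of protein-coding genes of the assembly GRCz12tu, vcana and hapln1a are immediate neighbours, and so are vcanb and hapln1b, and an edil3 gene follows each pair (edil3a and edil3b). Within both pairs the mean of the link protein gene was on the other side of the median gene from that of its versican neighbour.

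tmem2 (ENSDARG00000061600) encodes a transmembrane protein that acts in the breakdown of hyaluronan at the cell surface and is needed in zebrafish for the restriction of the atrioventricular canal. Over both lines its mean was 5.22 log2 CPM, which corresponds to 37.4 CPM, and 78.2% of the listed genes had a lower mean. Its relative cemip, a secreted protein with a like function in mammals, was at 0.996 CPM.

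The stabilins are large scavenger receptors, known from the endothelium of veins and sinusoids, and stab2 is the one that takes up hyaluronan. The mean of stab2 (ENSDARG00000045748) was 4.34 log2 CPM, or 20.2 CPM, with 68.6% of the listed genes lower. stab1 (ENSDARG00000076484) had a mean of 1.49 log2 CPM, or 2.80 CPM, with 39.5% of the listed genes lower. stab2 was thus above the median gene and stab1 under it.

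**Figure D1:**
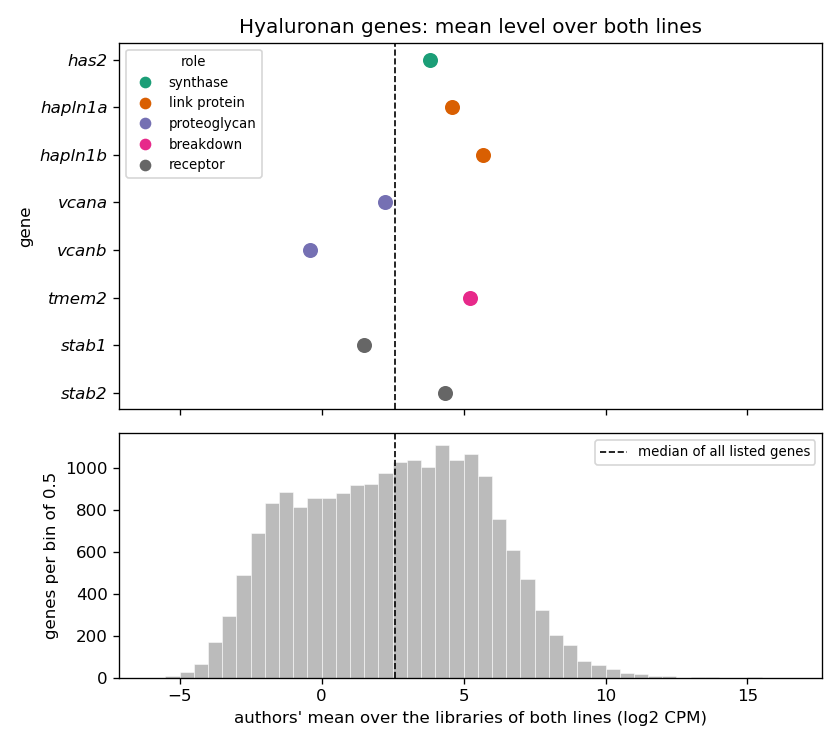
Mean level of each of the 8 hyaluronan genes over the libraries of both lines in log2 CPM (upper panel, points coloured by role) above the distribution of all 19722 listed genes on the same axis (lower panel, bars are genes per bin of 0.5 log2 CPM). The dashed line is the median gene at 2.58 log2 CPM, with has2, hapln1a, hapln1b, tmem2 and stab2 to its right and vcana, vcanb and stab1 to its left; there are no error bars because each gene has 1 deposited mean.

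Taken as a group, 5 of the 8 genes were above the median gene and 3 were not, beside 50.0% of all listed genes above it. Against the median of the genes with a mean of at least 1 CPM, 4 of the 8 were above. The median of the 8 means was 4.07 log2 CPM (16.8 CPM), beside 2.58 log2 CPM over all listed genes. This is a description of a list chosen by name, with no test.

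Other genes of hyaluronan and versican handling were described from 8 lists. Of 65 such genes outside the 8, 47 were found in the table and 36 of these (76.6%) had a mean of at least 1 CPM, close to the 73.9% of all listed genes that did. A mean above the median gene was seen in 24 of the 47 (51.1%), close to the 50.0% of all listed genes that the median sets. Most of the 47 were found by a symbol, and genes with a symbol had a higher median, at 10.4 CPM. Neither share was set against genes with a symbol alone, so the likeness holds only beside all listed genes. The 18 genes that were not found under the names used, among them cd44a, cd44b, lyve1a and lyve1b, were not analysed here.

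Enzymes that make the activated sugars were all found, and the 9 genes ranged between 1.34 and 55.8 CPM. The highest means were those of ugdh, which makes the glucuronate precursor, at 55.8 CPM, and uap1, which makes the N-acetylglucosamine precursor, at 32.0 CPM. Among the link proteins outside the members, hapln3 was at 6.33 CPM and hapln2 at 0.101 CPM. Of the hyaluronan-binding proteoglycans and matrix proteins, 8 of 13 were found and 6 of these were under 1 CPM, vcanb included. The share of at least 1 CPM was 25% of those found, against 73.9% of all listed genes. Of the 6, ncana, itih5 and vcanb lay nearest to this cut, at 0.934, 0.832 and 0.757 CPM. The others, acana, itih2 and ncanb, were at 0.180, 0.128 and 0.0532 CPM. tnfaip6, which transfers heavy chains of inter-alpha-inhibitors onto hyaluronan, was at 8.24 CPM and was the only gene of this list above the median gene.

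Genes of breakdown had means on both sides of 1 CPM, with 7 of the 9 that were found (77.8%) at or above it, against 73.9% of all listed genes. The lysosomal enzymes gusb and hexb, which remove single sugars from hyaluronan fragments among other substrates, had the highest means, at 81.3 and 65.3 CPM. The hyaluronidase genes hyal2b, hyal1 and hyal2a were at 30.0, 13.9 and 12.4 CPM, and hyal3 was at 0.394 CPM. Of the receptors, hmmr, which also acts at the mitotic spindle, was at 22.6 CPM and laynb at 2.22 CPM.

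Of the Adamts proteases that cut versican, none of the 4 found (of 6) was above the median gene, beside 50.0% of all listed genes. adamts9 was at 3.31 CPM and adamts1 at 2.78 CPM, while adamts15a and adamts8a were at 0.182 and 0.0665 CPM. For the enzymes that build chondroitin sulfate chains, all 15 that were found (of 17) were at or above 1 CPM, against 73.9% of all listed genes. Of these 15, 9 were above the median gene, beside 50.0% of all listed genes. All 15 were found by a symbol, and their median of 8.50 CPM was below that of the genes with a symbol, 10.4 CPM. b4galt7 and b3gat3, which add sugars of the linker between the core protein and the chain, had the highest means, at 47.8 and 42.4 CPM.

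**Figure D2:**
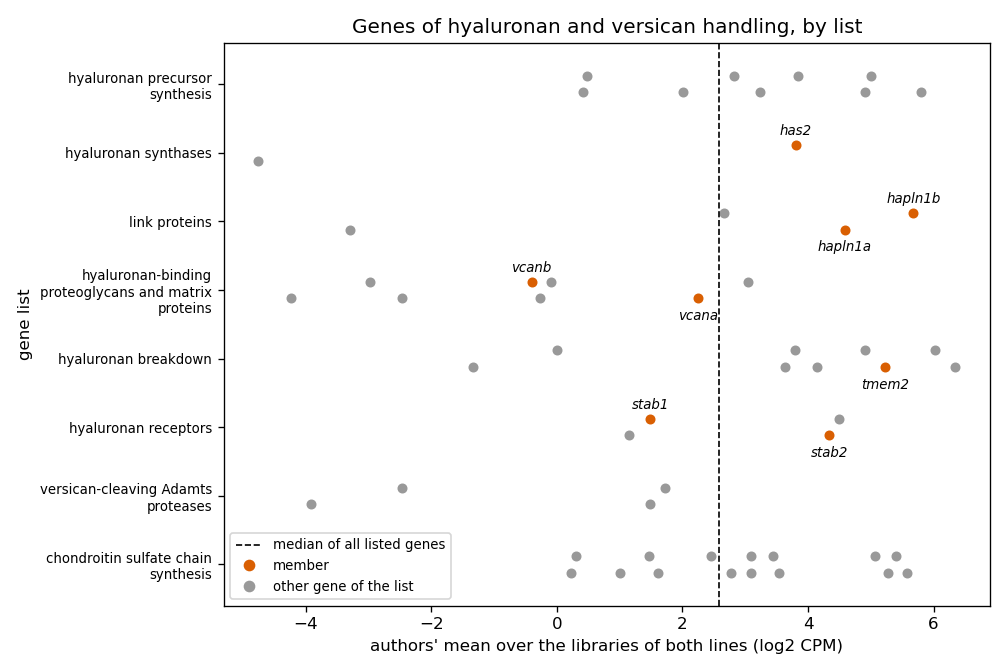
Mean level over the libraries of both lines in log2 CPM of each gene found from the 8 lists of hyaluronan and versican handling, with 1 point per gene and the 8 members in orange. The dashed line is the median gene at 2.58 log2 CPM; all 4 Adamts protease genes lie to its left, and the vertical offset of the points within a list only keeps them apart.

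Marker genes of several cell types were read in the sorted cells, again as means over both lines. All 7 endothelial markers were found, between 185.6 CPM for cdh5 and 1194 CPM for fli1a. The reporter by which the cells of Tg(fli1a:egfp) were sorted is that of fli1a, so fli1a is not a marker independent of the sort. The genes listed as endocardial markers, nfatc1, gata5 and fn1a, were at 22.6, 145.3 and 750.6 CPM. Of these, the paper names nfatc1 and fn1a as markers reported in the endocardium, and gata5 was added here. Markers of other cells were also read. The red blood markers ranged between 2.59 and 107.6 CPM, the 3 myocardial markers found between 1.23 and 16.1 CPM, and the 3 myeloid markers found between 2.52 and 934.7 CPM. The ranges were 2.41 to 94.8 CPM for skeletal muscle, 1.65 to 134.1 CPM for notochord and floor plate, 69.6 to 1633 CPM for epidermis, 3.83 to 89.2 CPM for neural cells and 1.20 to 32.8 CPM for neural crest. The median was 334.9 CPM over the epidermal markers and 240.0 CPM over the endothelial markers, and krt4 was at 1633 CPM, above fli1a. All the other lists of markers had medians below that of the endothelial markers. The lowest marker that was found, crestin of the neural crest, was at 1.20 CPM, just above 1 CPM, with 28.3% of the listed genes lower. In bulk samples, more cells of a type and more RNA per cell cannot be told apart, and the part of these other cells in the means of the hyaluronan genes was not tested.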

How the data were processed

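RNA of GFP-positive cells was amplified with Smart-seq2, which copies full-length polyadenylated RNA by PCR and keeps neither molecule counts nor strand. Mapping to the build GRCz11 and counting of reads for each gene were done by the authors in Rsubread, followed by limma; the versions, the filter on low counts and the scaling are not given in the sources used here. The authors deposited, for each gene, a mean in log2 CPM, which was the only measurement used. Its column name is the one limma gives to the mean over all samples of a fit. These samples were taken here to be the libraries of both lines. The 7 remaining columns hold the authors' own comparison (log2 fold changes with confidence limits, test statistics, log-odds and p-values) and were not used. Since no values of single libraries were used, depth and replicate spread are unknown, and the planned limma comparison was not run.

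Means were put on the linear scale as 2 to their power (close to geometric means), which summed to 956297 CPM. Of the 19722 genes, 14092 had a symbol, and the gene name list matched 18622 identifiers. RefSeq synonyms and gene order came from GRCz12tu. The named genes are the 8 members and, as a rule, the highest 2 genes of each list. Named after their values were seen were hapln2, hapln3, cemip, hyal1, hyal2a, hyal2b, hyal3, laynb, adamts15a and adamts8a. The same holds for ncana, itih5, acana, itih2, ncanb, ENSDARG00000102395 and the single markers. The members and lists were chosen with earlier results of these data known. The percentile step was tested on simulated data. Python 3.11.15, numpy 2.4.6, pandas 2.3.3 and matplotlib 3.10.9 were used.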

Additional observations from a re-analysis of the deposited data

How the results depend on the processing

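Against the median of the genes with a symbol (10.4 CPM), 5 of the 8 members were still above it, and against the median of the 14582 genes with a mean of at least 1 CPM (14.2 CPM), 4 were, since has2 at 14.0 CPM then lay just under it. The share of genes with a lower mean was smaller for all 8 members against genes with a symbol, by 4.08 to 8.89 percentage points. For the 7 members of at least 1 CPM, it was smaller by 6.01 to 21.3 points against genes of at least 1 CPM. That background leaves out only genes with lower means than these 7, so this fall was fixed in advance. vcanb, under 1 CPM, has no share there. Rescaling the means to sum to 1000000 CPM raised each by the same factor, 1.05. Levels per coding or transcript length and the identity between paralogous proteins were not run, because no lengths or protein sequences were used here, and no replicate was left out, because values per library were not used. No paired analysis was possible because each gene has a single mean over both lines. The depth behind the means is unknown, so no interval can be given for means under 1 CPM, such as those of vcanb and has3.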
